A study of Mus musculus with 25 samples.

Results

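Nuclear genes named for the mitochondrial respiratory chain and ATP synthase were followed through in vitro matured mouse oocytes, 2-cell embryos and morulae. Members were the protein-coding genes whose symbol starts with Ndufa, Ndufb, Ndufc, Ndufs or Ndufv (complex I), Sdha to Sdhd (complex II), Uqcr (complex III), Cox4 to Cox8 (complex IV) or Atp5 (complex V), with the Ndufaf assembly factors left out. A member need not be a structural subunit of the complex it is counted in, because the rule went by name. The rule used names and no measured value. It found 84 genes among the 35561 listed in at least 1 of the 2 expression tables: 38 of complex I, 4 of complex II, 8 of complex III, 17 of complex IV and 17 of complex V. The oocyte table holds 82 of them, since Cox7a1 and Cox7b2 have a row in the embryo table alone.

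The respiratory chain passes electrons from NADH (complex I) and succinate (complex II) through ubiquinol to complex III, cytochrome c and complex IV, and ATP synthase (complex V) uses the resulting proton gradient to make ATP. Complexes I, III, IV and V join a small set of proteins made inside the mitochondrion to a larger set coded in the nucleus and imported, while complex II is wholly nuclear. The oocyte loads the embryo with its mitochondria and with stored messenger RNA. Maternal messages are broken down as the embryonic genome is switched on, in the mouse mainly at the 2-cell stage.

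All material came from C57BL/6 mice. Germinal vesicle oocytes were matured in M16 medium for 16 h and taken at metaphase II (MII). For the embryos, oocytes were inseminated for 6 h and cultured in G1 medium, with 2-cell embryos scored at 24 h and a change to G2 at 72 h. No maturation time is listed for the embryo libraries. The culture medium held either phosphate-buffered saline (PBS) or the agent labelled VCD, whose dose the labels do not give. There were 25 Smart-seq2 libraries, a full-length cDNA method for very small RNA amounts: 4 MII oocyte libraries with PBS and 5 with VCD, and 4 libraries each of PBS and VCD 2-cell embryos and morulae. The labels do not say how many oocytes or embryos, or which animals, went into each library, so p-values measure the spread between libraries. Levels are FPKM (reads scaled to gene length and library size), which are shares of a library, so fewer cells and less RNA per cell cannot be told apart.

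The values imply 15075832 to 20998296 reads per library. Stage markers followed the labels in every library: 4 oocyte genes (Gdf9, Bmp15, Mos and Zp3) summed to 5366.75 to 6845.33 FPKM in MII libraries and to at most 45.0 in morulae, and 4 genes of the 2-cell stage summed to 879 to 1300.2 in 2-cell libraries and at most 28.7 elsewhere. The 5 morula markers summed to 104 to 139 FPKM in morulae and at most 15.6 before. Markers of the cumulus and granulosa cells that surround the oocyte (9 genes) summed to 7.83 to 11.2 in MII libraries, 4.22 to 9.501 in 2-cell libraries and at most 0.238 in morulae, where 5 of the 9 were at 0 in all PBS libraries. The 5 listed sperm markers of 6 summed to at most 2.15, and the 1 listed red blood cell marker of 2 was at 0 in all oocyte libraries and between 0.939 and 4.22 FPKM in those of embryos. The cumulus sum falls while most members rise, and its part in the values below was not tested.

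Together the members took 0.225% ± 0.0146 (SD, n = 4) of all FPKM in PBS oocytes, 0.315% ± 0.0175 (SD, n = 4) in PBS 2-cell embryos and 1.16% ± 0.0643 (SD, n = 4) in PBS morulae. With VCD the shares were 0.241% ± 0.0482 (SD, n = 5), 0.316% ± 0.0702 (SD, n = 4) and 1.14% ± 0.0869 (SD, n = 4). Every morula library, at 1.06% or more, lay above every earlier library, whose highest was 0.415%. A few genes made up most of the sum. In PBS oocytes 42 of 82 members had a mean of 1 FPKM or more, and 5 genes (Atp5b, Cox8a, Sdha, Uqcrc2 and Cox6a1) held 60.7% of the members' FPKM. In PBS morulae 79 of 84 reached 1 FPKM, 51 reached 10, and the leading 5 (Atp5b, Cox8a, Atp5c1, Cox6a1 and Cox7a2l) held 44.3%.

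**Figure D1:**
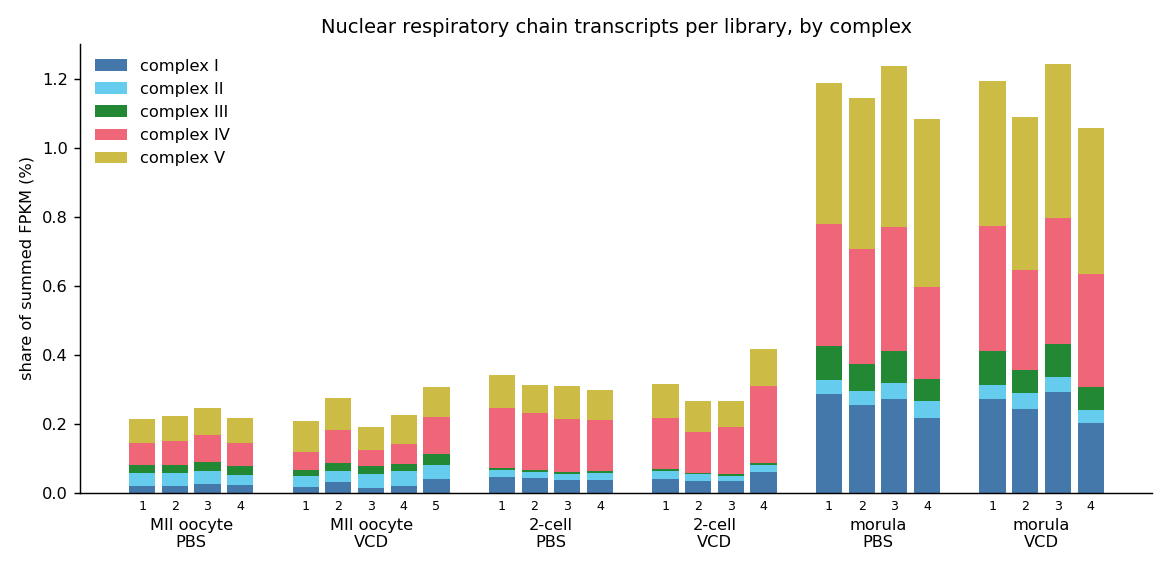
Share of each library's summed FPKM (%) taken by the members, stacked by complex, with 1 bar per library and the replicate number under it. The 8 morula bars reach 1.06% to 1.24%, and the 17 oocyte and 2-cell bars stay at or below 0.415%.

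The change from the 2-cell embryo to the morula was tested between the PBS libraries, 4 against 4, with limma on log2(FPKM + 1) over 12517 genes and Benjamini-Hochberg adjustment. This scale understates the change of genes below a few FPKM, so the ratio of the mean FPKM values is given beside the larger changes, and an order of genes on 1 scale need not hold on the other. Of the 84 members, 80 passed the filter of 1 FPKM in 4 libraries, and a gene could pass it through the stage where it is high. Of these 80, 70 rose, 4 fell and 6 were not called at an adjusted p under 0.05. Over all tested genes 42.7% were called higher and 45.0% lower. In 67 members all 4 morula libraries lay above all 4 2-cell libraries, and in 4 all lay below, where 40.4% and 43.0% of all genes did so. The members' median difference was 2.28 on the log2 scale, and that of all genes was -0.08. The members that fell were Ndufa4l2, Cox6a2, Cox6b2 and Cox7b. Ndufb2, Cox4i2, Cox7a1 and Cox7b2 were below the filter.

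**Figure D2:**
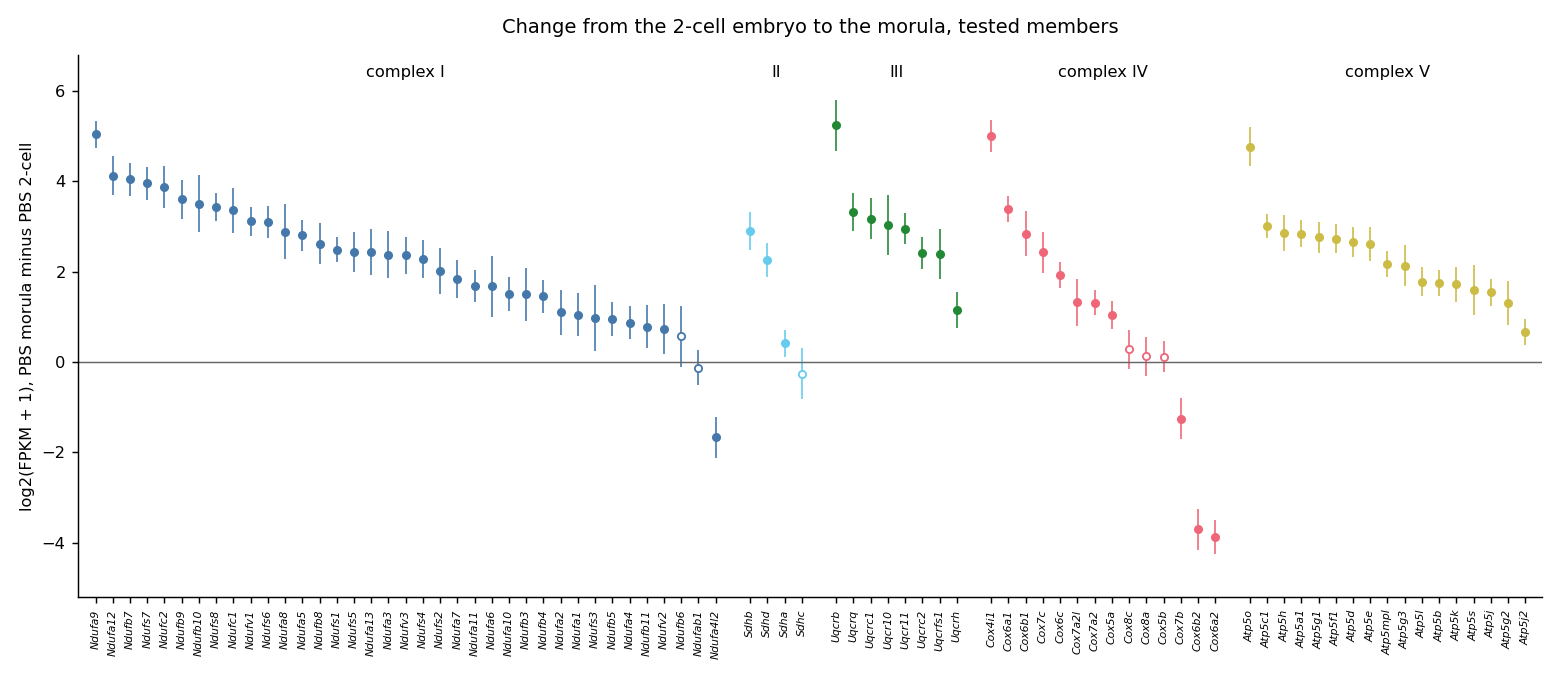
Difference in log2(FPKM + 1) between PBS morulae and PBS 2-cell embryos for the 80 tested members, grouped by complex and ordered by size, with 95% intervals. Filled points passed an adjusted p of 0.05 and open points did not; values run from -3.88 (Cox6a2) to 5.24 (Uqcrb), and the points below 0 that passed are Ndufa4l2, Cox7b, Cox6b2 and Cox6a2.

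Complex I, the NADH dehydrogenase, had 34 of its 37 tested members higher in PBS morulae and 1 lower. Its summed level was 148 ± 16.5 FPKM (SD, n = 4) at the 2-cell stage and 946 ± 151 (SD, n = 4) in the morula. The 7 nuclear core subunits, among them the carriers of the flavin and the iron-sulfur clusters, all rose, by 0.73 to 3.96 on the log2 scale. Ndufs7, a core subunit close to the quinone site, had 0.222, 0.125, 0.215 and 0.207 FPKM in the 2-cell libraries and 22.6, 17.2, 18.6 and 12.9 in the morulae. These 2-cell values are 4 to 6 reads per library, so the ratio of 92.7 between the means is loosely set. Ndufs8, another core subunit, rose from 9.09 ± 0.528 FPKM to 108 ± 16.9 (SD, n = 4). Ndufv2 and Ndufs3 rose least among the core, by 0.73 and 0.97, with groups that overlapped, and neither call held under median-of-ratios scaling (adjusted p 0.114 and 0.0746). Without morula PBS replicate 3 the adjusted p of Ndufv2 was 0.0502.

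Ndufa9 (chr6:126821721-126849136, minus strand; gene positions are from GENCODE M21 on GRCm38), a supernumerary subunit that binds NADPH at the arm's junction, showed the largest difference of complex I on the log2(FPKM + 1) scale. It had 3.79, 3.77, 4.90 and 3.36 FPKM in PBS 2-cell embryos and 177, 157, 167 and 146 in PBS morulae. The groups did not overlap, and the difference was 5.04 ± 0.134 (SE) on the log2 scale (limma adjusted p 1.67e-10), with a ratio of 40.9 between the means. In oocytes with PBS it was at 1.08 to 2.00 FPKM, so the gene was low in both earlier stages. Ndufa12 and Ndufb7, also supernumerary, rose by 4.12 and 4.04 on the log2 scale. By the ratio of means they came before Ndufa9, at 48.3 for Ndufa12 and 111 for Ndufb7, the highest of the 80 tested members. Ndufb7 went from 9 to 18 reads per 2-cell library to 1113 to 2210 reads per morula library.

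Against this direction, Ndufa4l2 (chr10:127514967-127517154, plus strand) had 3.66, 2.59, 1.13 and 1.84 FPKM in PBS 2-cell embryos and no read in any of the 4 PBS morula libraries. A floor of 3 reads per library puts it below 0.159 FPKM there, which is at least 14.5-fold lower than the 2-cell mean. Ndufa4l2 is a paralogue of Ndufa4 known as a target of hypoxia signalling. Ndufa4 itself, now usually counted with complex IV, had 11.4 ± 2.55 FPKM at the 2-cell stage and 21.4 ± 1.93 in morulae (SD, n = 4), and it passed the test. Ndufab1, the mitochondrial acyl carrier protein that is also a complex I subunit, did not pass, with 1.94 ± 0.497 and 1.70 ± 0.554 FPKM (SD, n = 4). Ndufb6 did not pass either (adjusted p 0.097), and without 2-cell PBS replicate 4, whose 4.14 FPKM was the highest of the 2-cell values, the difference was 0.90 with an adjusted p of 0.00183.

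Complex II, succinate dehydrogenase, had 3 of 4 members higher and none lower, with changes of unequal size. The iron-sulfur subunit Sdhb had 1.59, 0.886, 0.881 and 0.795 FPKM in PBS 2-cell embryos and 18.6, 12.4, 15.3 and 11.0 in PBS morulae, a rise of 2.90 ± 0.190 (SE; adjusted p 9.44e-08) and a ratio of 13.8. The membrane anchor Sdhd rose by 2.26. Its partner in the membrane, Sdhc, had 9.94 ± 3.05 and 8.18 ± 2.45 FPKM (SD, n = 4) and did not pass. The flavoprotein Sdha (chr13:74322254-74350280, minus strand) had 33.2, 32.4, 33.7 and 33.6 FPKM, then 37.5, 47.1, 41.1 and 54.3. The groups did not overlap and the call of 0.41 ± 0.135 (SE; adjusted p 0.0143) was made, but it was lost under median-of-ratios scaling (0.06, adjusted p 0.691) and quantile normalization (0.23, adjusted p 0.153).

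All 8 complex III members rose. Uqcrb (chr13:66900617-66905378, minus strand), a small subunit at the quinone-binding side of the complex, had the largest log2(FPKM + 1) difference of the 80 tested members, and the third ratio of means after Ndufb7 and Ndufs7. It had 3.998, 3.73, 2.96 and 2.78 FPKM in PBS 2-cell embryos and 223, 175, 195 and 92.1 in PBS morulae, a difference of 5.24 ± 0.252 (SE; adjusted p 8.06e-09) and a ratio of 50.95. Of its 50-base exon words, 25.5% also occur in other annotated genes, Gm16089 and Gm2962 most often, so its level is uncertain to that extent. The core proteins Uqcrc1 and Uqcrc2 and the Rieske iron-sulfur protein Uqcrfs1, which hands electrons on to cytochrome c1, rose by 3.18, 2.42 and 2.39 on the log2 scale, with ratios of 17.0, 6.05 and 6.63.

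Uqcrc2 (chr7:120635176-120659524, plus strand) followed a different course from Uqcrc1 and Uqcrfs1 when the oocyte is set beside the embryo. It had 61.5, 59.2, 59.2 and 62.1 FPKM in PBS oocytes, 6.51, 5.50, 3.86 and 6.25 in PBS 2-cell embryos, and 35.1, 30.2, 35.1 and 33.5 in PBS morulae. The 3 groups did not overlap. Uqcr11 was also lower at the 2-cell stage and higher again after it, with means of 1.98, 0.258 and 8.68 FPKM, but its morula libraries lay above the oocytes. In the oocyte Uqcrc2 alone was most of the complex III sum of 70.6 ± 1.83 FPKM (SD, n = 4), while Uqcrc1 was at 0.546 ± 0.269 FPKM (SD, n = 4). Of the exon bases of Uqcrc2, 19.7% overlap Pdzd9 on the opposite strand, and Smart-seq2 reads do not tell the strands apart.

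Complex IV, cytochrome c oxidase, was mixed: 8 of its 14 tested members rose, 3 fell and 3 were not called. Cox4i1 (chr8:120668222-120674207, plus strand), the ubiquitous form of the regulatory subunit 4, had 2.59, 2.59, 2.54 and 1.91 FPKM in PBS 2-cell embryos and 121, 115, 122 and 81.9 in PBS morulae, a rise of 5.01 ± 0.160 (SE; adjusted p 4.79e-10) and a ratio of 45.6. Cox5a and Cox6c rose by 1.04 and 1.93. Cox5b, the zinc-binding subunit, had 9.75 ± 1.42 and 10.6 ± 1.55 FPKM (SD, n = 4) and did not pass, with a 95% interval of -0.23 to 0.45. Cox8a was already among the most abundant members at the 2-cell stage. It had 366, 345, 323 and 280.3 FPKM there and 451, 361, 412 and 239 in morulae, overlapping groups with an interval of -0.30 to 0.54, and it passed only when morula PBS replicate 4 was left out (0.31, adjusted p 0.0381). In PBS oocytes it had 77.7 to 83.4 FPKM.

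Several complex IV subunits exist in pairs, a widely expressed form and one known from particular tissues, and 2 of these pairs, Cox6a and Cox6b, moved in opposite directions with both genes called. The pair of Ndufa4 and Ndufa4l2, placed in complex I here by name, did so as well. Cox6a2 (chr7:128205435-128206387, minus strand), the form of heart and skeletal muscle, had 18.6, 15.8, 12.5 and 13.7 FPKM in PBS 2-cell embryos and 0, 0, 0 and 0.403 in PBS morulae, a fall of 3.88 ± 0.171 on the log2 scale (SE; adjusted p 4.40e-09). Its ubiquitous partner Cox6a1 (chr5:115345642-115348981, minus strand) had 35.1, 28.4, 32.0 and 24.8, then 353, 308, 336 and 293 FPKM, a rise of 3.39 ± 0.134 (SE; adjusted p 2.02e-09) and a ratio of 10.7. The values of each gene did not overlap between the stages. Cox6a2 was 6.08% ± 1.59 of the pair in PBS oocytes, 33.5% ± 3.67 in 2-cell embryos and 0.0343% ± 0.0685 in morulae (SD, n = 4 each).

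Cox6b2 (chr7:4751792-4753094, minus strand), a form known from testis, was the main Cox6b gene before the morula. It had 8.69, 8.57, 10.1 and 9.11 FPKM in PBS oocytes. The PBS 2-cell libraries held 29.7, 30.3, 30.04 and 31.0 FPKM, and the PBS morula libraries 0.516, 1.73, 1.82 and 1.83. Cox6b1 (chr7:30616861-30626151, minus strand), the ubiquitous form, had 1.58 to 2.92 FPKM in the oocytes. At the 2-cell stage it was at 1.80, 0.984, 1.65 and 3.02, against 16.3, 15.8, 20.5 and 24.1 among the morulae. Between the embryo stages Cox6b2 fell by 3.71 ± 0.203 and Cox6b1 rose by 2.84 ± 0.222 (SE; adjusted p 2.22e-08 and 3.85e-07). The share of Cox6b2 in the pair was 80.9% ± 3.29, 94.3% ± 2.37 and 7.03% ± 2.88 (SD, n = 4 each) from oocyte to morula, so the order of the pair was the reverse in the morula.

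Cox4i2, a form known from lung, was the larger part of the Cox4 pair in PBS oocytes, at 66.7% ± 13.6 (SD, n = 4), with only 1.46 ± 0.551 FPKM (SD, n = 4). Its share was 22.7% ± 3.01 in 2-cell embryos and 2.12% ± 0.783 in morulae (SD, n = 4 each), as Cox4i1 rose. Cox4i2 itself did not go down between the embryo stages: it had 0.7003 ± 0.0815 and 2.47 ± 1.15 FPKM (SD, n = 4), was below the filter in the PBS comparison and rose by 1.12 in the VCD one (adjusted p 0.00307). Ndufa4l2 made up 17.0% ± 6.98 (SD, n = 4) of its pair with Ndufa4 at the 2-cell stage and 1.43% ± 1.32 (SD, n = 4) in oocytes. Cox8c, a testis form, was at most 0.607% of its pair with Cox8a in the oocyte libraries and at most 0.758% in the embryo libraries. Cox7a1, the heart and muscle form beside Cox7a2, was 0.891% ± 0.550 of its pair in PBS 2-cell embryos and 0.884% ± 0.346 in PBS morulae (SD, n = 4). Cox7b2, another testis form, had 3 to 14 reads per PBS morula library and at most 2 per PBS 2-cell library.

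**Figure D3:**
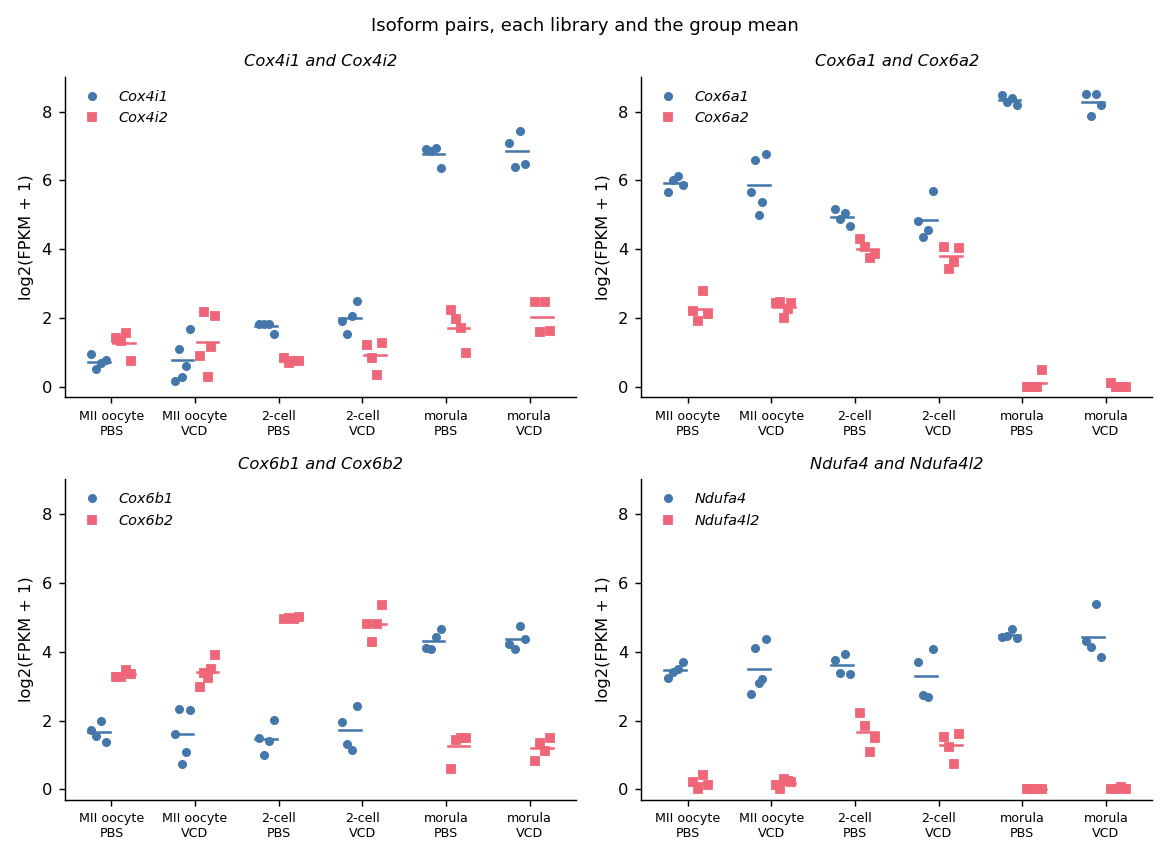
Log2(FPKM + 1) of 4 isoform pairs in each library (points) with the group mean of these log values (lines), in the 6 groups from oocyte to morula. Cox6b2 lies above Cox6b1 in every oocyte and 2-cell library and below it in every morula library; Cox6a2 and Ndufa4l2 are at or near 0 in the morulae, where Cox4i1, Cox6a1 and Cox6b1 are highest.

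Cox7b (chrX:106015700-106022450, plus strand), the ubiquitous form of its pair with Cox7b2, also fell. It had 17.0, 16.1, 10.46 and 11.2 FPKM in PBS 2-cell embryos and 4.16, 6.501, 3.93 and 5.95 in PBS morulae, with no overlap, a fall of 1.25 ± 0.206 (SE; adjusted p 0.000163). In PBS oocytes it was at 2.60 to 3.02 FPKM. With VCD it fell by 0.76 with an adjusted p of 0.0470, and the call was lost under 8 of the alternatives tried. Without 2-cell VCD replicate 4, whose 29.6 FPKM was far above the 9.12, 10.2 and 12.4 of the others, the VCD fall was 0.40 (adjusted p 0.101).

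All 17 complex V members rose. Atp5b (chr10:128083273-128090391, plus strand), the catalytic beta subunit, was the most abundant member in oocytes and morulae. It had 144, 147, 156 and 143 FPKM in PBS oocytes. The 4 PBS 2-cell libraries held 192, 174, 199.8 and 189.9, and the 4 PBS morula libraries 538, 584, 659 and 776. The embryo groups did not overlap, and the rise was 1.74 ± 0.129 (SE; adjusted p 2.46e-07). The alpha subunit Atp5a1 and the gamma subunit Atp5c1, which pair with it in the F1 head and the rotor, rose by 2.84 and 3.01. Atp5o (chr16:91925214-91931687, minus strand), the subunit that ties the head to the stator, had the largest log2(FPKM + 1) difference of complex V. It had 3.41, 2.42, 1.94 and 2.26 FPKM, then 116, 94.1, 104 and 67.7, a rise of 4.77 ± 0.192 (SE; adjusted p 2.28e-09) with a ratio of 38.0, but 41.6% of its exon words occur in other genes and 35.6% of its exon bases overlap D430001F17Rik and Gm15976. The ratio was higher for Atp5d, the delta subunit of the rotor, at 46.4, from 2 to 8 reads per PBS 2-cell library. The 3 genes for the same mature c-ring protein rose by 2.76 (Atp5g1), 1.31 (Atp5g2) and 2.14 (Atp5g3) on the log2 scale. The value of Atp5g2 is uncertain, since 38.3% of its exon words occur in other genes, Gm10175 and Gm10231 foremost. The smallest rise was that of Atp5j2, 0.67, from 0.577 ± 0.117 to 1.52 ± 0.410 FPKM (SD, n = 4).

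Promoters were read for the members because most of them moved together. The stretches below are from RefSeq, on build GRCm38.p6, 5′ to 3′ on the strand of the gene, and lie within 250 bases before the start. Bases inside an annotated exon were left out. Capitals mark matches to the NRF1 core (GCGCANGCG) or to the ETS core bound by the GABP factor (CCGGAAG), on either strand. Cox6a1, at chr5:115348982-115349129, is the rising gene of a pair and holds 3 NRF1 matches, which begin 162, 161 and 117 bases before the start, the first 2 overlapping. Uqcr11, at chr10:80406831-80407071, is the complex III gene with the highest ratio after Uqcrb (33.6 between the means) and holds 1 ETS match that begins 66 bases before the start. Cox6b2 at chr7:4753095-4753225 and Cox7b at chrX:106015450-106015699 fell, and Ndufa9 at chr6:126849145-126849394 had the largest log2(FPKM + 1) rise of complex I, though not the largest ratio. These 3 stretches hold no match to either motif. In the full windows counted in the next paragraph, Cox6a1 also holds 1 ETS match and Uqcr11 1 NRF1 match, outside the stretches shown. Cox6b2, Cox7b and Ndufa9 hold none in those windows either. The genes were chosen after their values were seen.
Cox6a1: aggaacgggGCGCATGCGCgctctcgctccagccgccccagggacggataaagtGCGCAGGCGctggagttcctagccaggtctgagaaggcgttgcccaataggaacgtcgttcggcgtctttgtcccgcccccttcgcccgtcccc
Uqcr11: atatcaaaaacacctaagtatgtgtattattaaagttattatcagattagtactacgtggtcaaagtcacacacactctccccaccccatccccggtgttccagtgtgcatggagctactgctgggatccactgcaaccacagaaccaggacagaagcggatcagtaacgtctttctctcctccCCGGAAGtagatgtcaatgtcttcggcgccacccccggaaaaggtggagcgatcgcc
Cox6b2: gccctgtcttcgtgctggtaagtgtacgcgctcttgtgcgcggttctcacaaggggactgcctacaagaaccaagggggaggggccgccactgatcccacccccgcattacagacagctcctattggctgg
Cox7b: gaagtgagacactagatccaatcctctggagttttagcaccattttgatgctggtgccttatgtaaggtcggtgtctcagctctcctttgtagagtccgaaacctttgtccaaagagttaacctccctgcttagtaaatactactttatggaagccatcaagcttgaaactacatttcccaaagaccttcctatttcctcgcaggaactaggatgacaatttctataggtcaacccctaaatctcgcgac
Ndufa9: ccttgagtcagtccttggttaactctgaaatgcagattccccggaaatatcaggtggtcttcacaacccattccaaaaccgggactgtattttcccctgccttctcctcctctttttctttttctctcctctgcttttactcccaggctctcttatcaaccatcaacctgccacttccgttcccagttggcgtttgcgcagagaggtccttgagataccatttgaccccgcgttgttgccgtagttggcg

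A promoter was found by symbol for 66 of the 84 members. In windows of 250 bases before to 50 after the start, 20 of the 66 (30.3%) held an NRF1 match, against 7.03% of the 27025 genes with a promoter. Those 27025 genes were neither limited to expressed genes nor matched to the members for GC content, and the part of either in the gap was not tested. An ETS match was in 16 (24.2%), against 9.93% of all genes, and either was in 45.5% against 15.5%. The members with an NRF1 match had a median stage difference of 2.62 and those without one 1.84, and for ETS the medians were 2.44 and 2.29. With a further C required at the end of the NRF1 core, 17 members (25.8%) and 5.19% of all genes matched, and the medians were 2.44 and 2.06, so the gap depends on the letters chosen. Cox8a holds 2 ETS matches and did not pass the stage test, while Ndufa9 holds none. A match is a string of letters and not evidence of binding.

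The oocyte and embryo values come from separate tables, so levels of oocytes and 2-cell embryos are set side by side without a test. Of the 82 members in both, 47 had every PBS 2-cell library above every PBS oocyte library, 7 had every one below, and 28 overlapped. The share of all genes that separate in this way was not computed, so these counts do not set the members apart from other genes. The 7 that were lower at the 2-cell stage, Ndufa5, Sdha, Sdhd, Uqcr11, Uqcrc2, Cox6a1 and Atp5mpl, all lay higher again in the morulae than in the 2-cell libraries. Sdhd, for example, had 31.8 ± 3.40, 18.4 ± 3.54 and 91.9 ± 15.9 FPKM (SD, n = 4 each) in the 3 stages. Complex III and complex II sums were lower at the 2-cell stage than in the oocyte, at 19.0 ± 1.92 against 70.6 ± 1.83 FPKM and 62.6 ± 5.71 against 108 ± 9.11 (SD, n = 4 each). The sums of complexes I, IV and V were higher, at 148, 569 and 317 FPKM against 66.3, 212 and 221. In the morulae 75 of the 82 lay above the oocytes without overlap, 4 lay below and 3 overlapped, again with no share over all genes to set beside them.

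The same stage change with VCD was fitted on separate libraries, 4 against 4, over 12355 genes, of which 41.0% were called higher and 43.9% lower. Of 79 members tested, 70 rose and 3 (Cox6a2, Cox6b2 and Cox7b) fell. Ndufa4l2, which fell with PBS, was below the filter with VCD and was not tested. It had 1.88, 1.36, 0.679 and 2.06 FPKM in VCD 2-cell embryos and 0, 0, 0.0597 and 0 in VCD morulae. Among the 78 members tested in both fits, 68 rose in both and 3 fell in both. Sdha and Ndufs3 passed with PBS alone and Ndufb6 with VCD alone, and the test of the difference itself, the interaction described further on, called none of them. The largest gap between both estimates was 0.593, for Cox5a, which rose by 1.04 with PBS and 1.63 with VCD. Ndufa9 had 2.46, 3.07, 4.07 and 6.77 FPKM in VCD 2-cell embryos and 145, 136, 151 and 107 in VCD morulae. Cox6b2 had 27.2, 18.5, 27.02 and 39.9, then 0.784, 1.56, 1.18 and 1.84.

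Genes that build or feed the chain went in both directions in the PBS stage comparison. The counts below stand beside 42.7% higher and 45.0% lower over all tested genes, and each list holds 3 to 17 tested genes, so a count near those shares says little about a list. Of the listed complex I assembly factors, 11 of 15 tested rose and 2 fell: Ndufaf1 rose from 1.08 to 61.1 FPKM and Ndufaf4 fell from 67.6 to 9.51. For complex II, Sdhaf2 rose by 1.56 and Sdhaf3 fell by 1.22, with 1 of 3 higher and 2 lower. For complex III 3 of 4 rose and 1 fell, with Uqcc1 up by 2.71 and Uqcc3 by 3.74. For complex IV 12 of 17 rose and 3 fell, with Coa7 up by 3.13 and Cmc1, a copper-site chaperone, down from 39.6 to 2.32 FPKM. For ATP synthase 3 of 5 rose and none fell, Tmem70 and Tmem242 among them. Of the electron carriers 3 of 4 rose, and Cyc1, the cytochrome c1 of complex III that the naming rule leaves out, went from 9.42 to 286 FPKM. Of 13 citrate cycle enzymes 7 rose and 3 fell, with Idh3b up by 5.04 and Mdh2 by 4.34. Of the regulators 5 of 7 rose and none fell, and Gabpa, the DNA-binding part of GABP, went from 18.8 to 95.5 FPKM, and Yy1 from 2.22 to 11.49. Of 12 mitochondrially encoded subunits 5 rose and 5 fell, mt-Nd6 by 1.17 and mt-Cytb by 0.87, respectively, with a median of -0.13. With VCD 6 of the 12 rose and 1 fell, with a median of 0.57. These lists were read with earlier results of the data known.

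The effect of VCD was read against PBS at each stage on its own. In MII oocytes, 5 libraries against 4, no member of 46 tested was called by limma, and 1 had an unadjusted p under 0.05. Over all 8715 genes 0.0115% were called, and 245 genes had an unadjusted p under 0.05. That member was Atp5b, with 144, 147, 156 and 143 FPKM with PBS and 203, 183, 143, 178 and 166 with VCD, overlapping groups that differed by 0.24 ± 0.0941 on the log2 scale (SE; p 0.0283, adjusted p 0.999 by limma). The 95% interval of the difference lay within 2-fold either way in FPKM + 1 for 45 of the 46, the exception being Uqcr10. Over all 8715 genes 99.1% of the intervals did so. In FPKM itself these intervals are wider for members near 1 FPKM, here and in the comparisons below, so a change of 2-fold in FPKM is not excluded for all of them. With limma-voom on the recovered reads the count was 0 as well.

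In 2-cell embryos, 4 against 4, no member of 62 was called, and 0% of 11369 genes were. Ndufa2 and Atp5k had an unadjusted p under 0.05, as had 391 of all 11369 genes. Atp5k, a small membrane subunit of ATP synthase, had 0.827, 0.696, 1.10 and 0.481 FPKM with PBS and 1.3998, 0.781, 2.07 and 1.92 with VCD. The groups overlapped, and the difference was 0.50 with an interval of 0.05 to 0.94 (limma p 0.0317, adjusted p 0.999). For 58 of the 62 the interval lay within 2-fold in FPKM + 1, and the 4 others were Ndufa2, Ndufa6, Ndufa8 and Ndufs3. Over all 11369 genes 94.5% of the intervals lay within it. All 12 tested mitochondrially encoded subunits had an estimate below 0 here, with a median of -0.28, and none was called. In morulae 11 of the 12 were above 0, with a median of 0.17, and in the interaction all 12 were, with a median of 0.43. The interaction is the morula difference minus the 2-cell difference, so its signs follow from these estimates and add nothing separate. The 12 were measured in the same libraries, so their signs are not independent. None was called in either, and the smallest adjusted p of the interaction was 0.429 (limma).

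In morulae, 4 against 4, no member of 79 was called, and 0.0100% of 9959 genes were. Ndufb6 and Cox7b had an unadjusted p under 0.05, as had 311 of all 9959 genes. Ndufb6, a membrane-arm subunit, had 2.17, 2.64, 3.54 and 3.24 FPKM with PBS and 4.13, 4.32, 4.07 and 6.37 with VCD. It was the only member of the 79 whose groups did not overlap, with a difference of 0.55 and an interval of 0.08 to 1.02 (limma p 0.0261, adjusted p 0.999973). The share of all 9959 genes without overlap was not computed, so this does not set Ndufb6 apart. Of its exon words 31.6% are shared with other genes, Smim27 foremost, which overlaps it. Cox7b had 4.16, 6.501, 3.93 and 5.95 FPKM with PBS and 7.59, 9.33, 5.92 and 8.32 with VCD. For 72 of the 79 the interval lay within 2-fold in FPKM + 1, as it did for 84.3% of all 9959 genes.

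Whether the difference between VCD and PBS changed from the 2-cell embryo to the morula was tested as an interaction over the 16 embryo libraries. None of 81 members was called, 0% of 14144 genes were, and 1 member, Ndufs6, had an unadjusted p under 0.05. Of all 14144 genes, 502 had an unadjusted p under 0.05. Ndufs6, a zinc-binding subunit of complex I, had 0, 0.239, 0.343 and 0.462 FPKM in PBS 2-cell embryos and 0.517, 0.107, 0.591 and 0.817 with VCD. In morulae it had 9.97, 7.88, 11.3 and 9.88 with PBS and 7.87, 6.68, 9.10 and 7.08 with VCD. Its interaction was -0.56 with an interval of -1.07 to -0.05 (limma p 0.0344, adjusted p 0.999). The interaction's interval lay within 2-fold in FPKM + 1 for 73.6% of all 14144 genes and for 59 of the 81 members. For the other 22, Ndufs6 among them, a change of 2-fold on that scale was not excluded by the interval.

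**Figure D4:**
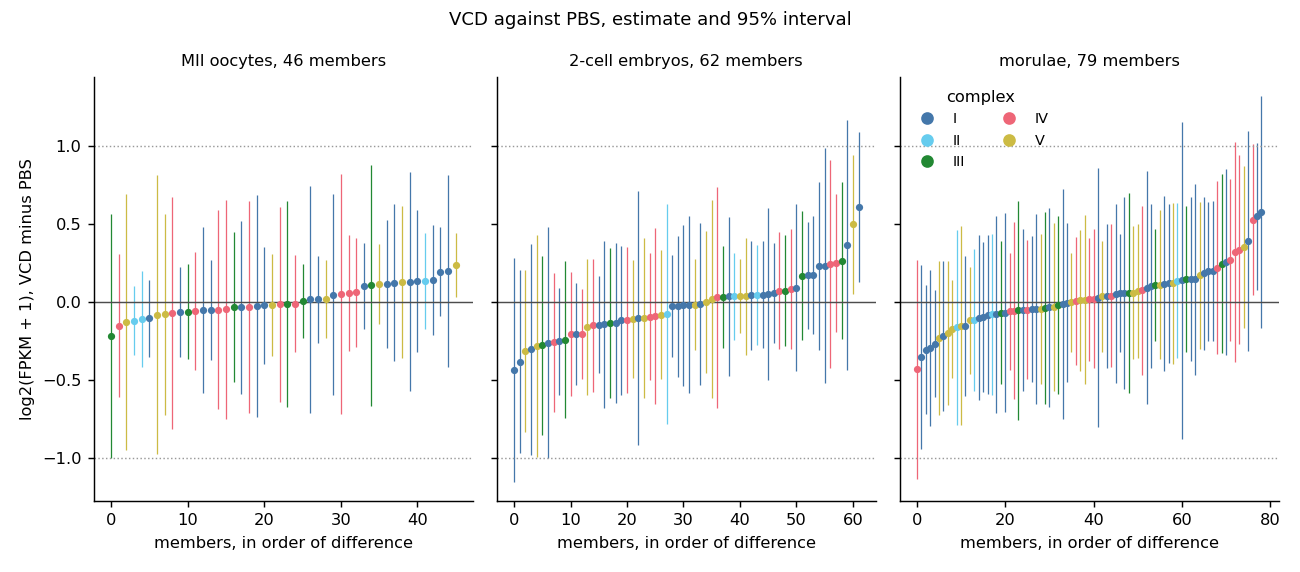
Difference in log2(FPKM + 1) between VCD and PBS for each tested member in the 3 stages, ordered by size and coloured by complex, with 95% intervals and dotted lines at a 2-fold change in FPKM + 1. No member was called in any stage, and the intervals stay inside the dotted lines for 45 of 46, 58 of 62 and 72 of 79 members. Over all tested genes 99.1%, 94.5% and 84.3% of the intervals do so.

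Libraries of 1 group were spread more widely with VCD than with PBS in oocytes and 2-cell embryos, which widens the intervals of the agent comparisons. Against the PBS mean, the members' median log2 difference was -0.27, 0.40, -0.34, -0.12 and 0.46 in the 5 VCD oocyte libraries, where the 4 PBS libraries lay between -0.07 and 0.13. VCD replicates 2 and 5 were high and replicates 1 and 3 low. In replicate 5, 45 of 46 members lay above the PBS mean, and in replicate 3 only 3 did. Cox6a1, as an example, had 49.6, 94.8, 31.2, 40.7 and 108 FPKM in these libraries and 49.999, 64.2, 69.6 and 57.8 with PBS. In 2-cell embryos the VCD medians were 0.00, -0.22, -0.18 and 0.39, the last being replicate 4, in which 53 of 62 members were above the PBS mean.

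Other short genes moved the same way in these libraries. The 510 other tested protein-coding genes with exons no longer than the members' median of 1559.5 bases had medians of -0.19, 0.14, -0.18, -0.04 and 0.26 in the VCD oocyte libraries, and all 8715 genes had medians of -0.03 to 0.06. The median coefficient of variation of members at 1 FPKM or more was 42.0% with VCD and 15.1% with PBS in oocytes. This compares with 28.5% and 15.3% for the other short genes and 17.1% and 11.4% for all genes. Members varied by 35.9% with VCD and 20.1% with PBS among 2-cell libraries. The other short genes varied by 31.0% and 23.4% there, and all genes by 21.8% and 16.6%. Among morulae members varied by 24.98% with VCD and 21.7% with PBS, less than the other short genes (34.8% and 30.4%) and all genes (28.4% and 23.9%). All genes were thus also more widely spread with VCD at each of the 3 stages. The difference in spread was not tested. Members are short, as the median tested protein-coding gene has 4176 exon bases, and the part of transcript length in the differences between libraries was not tested.

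**Figure D5:**
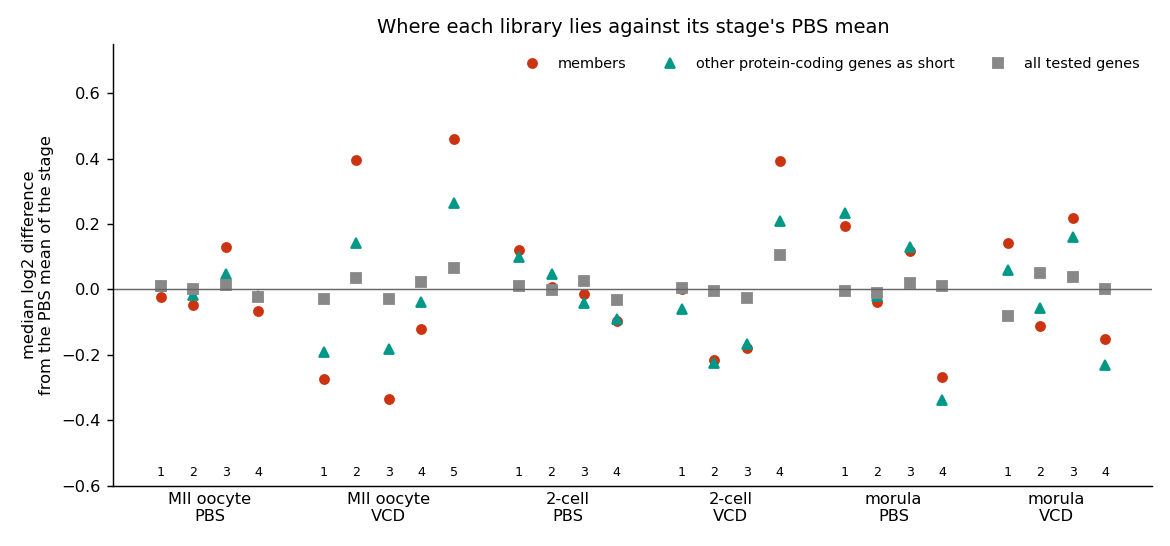
Median log2(FPKM + 1) difference of each library from the PBS mean of its stage, for the members (circles), for other protein-coding genes no longer than the members' median (triangles) and for all tested genes (squares). The circles of VCD oocyte libraries run from -0.34 to 0.46 and those of PBS oocyte libraries from -0.07 to 0.13; the triangles lie on the same side of 0 as the circles in all 5 VCD oocyte libraries.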

How the data were processed

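Smart-seq2 libraries of MII oocytes, 2-cell embryos and morulae were used through 2 deposited tables, 1 for oocytes and 1 for embryos. Each holds values deposited by the authors under mouse Ensembl gene identifiers, 1 column per library. The deposited values are FPKM, scaled by the authors to gene length and library size; the unit was read from their form (not whole, with totals that differ between libraries), and the counting tool is not stated in the labels. The submitters' processing notes name Bowtie2 2.2.3, TopHat2 2.0.12 and the chicken build galGal4. The identifiers are mouse, and the build used for mapping the reads is not given in the sources used here. Symbols, exon lengths and overlaps came from GENCODE M21, which named 25073 of 25158 and 34065 of 34228 rows. Low FPKM values were whole multiples of 1 read's worth for 90.6% to 93.4% of genes per library, which gave the implied depth and the recovered reads.

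Each comparison was fitted with limma 3.58.1 (R 4.3.3, empirical Bayes with a mean trend) on log2(FPKM + 1) over genes with 1 FPKM or more in 4 libraries of that comparison, and p-values were adjusted over all those genes. The fit was checked on simulated data. Exon words of 50 bases were compared between all annotated genes, and members with 20% or more shared were taken as uncertain (7 of 84). The members and lists were chosen with earlier results of these data known. Named genes were, per complex and comparison, the 3 largest rises and falls, the 5 smallest p-values where under 5 passed, the highest and lowest levels, isoform pairs, core subunits and the leading genes of each list. Ndufa5, Ndufa6, Ndufa8, Ndufab1, Uqcr10 and Atp5mpl were named after their values were seen. The alternatives were another pseudocount, other filters, other scalings, limma-voom, a replicate block, each library left out, and Sdhaf genes counted as members.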

Additional observations from a re-analysis of the deposited data

Results flagged for a closer look

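Among 156 sets of 4 or 5 libraries checked (the members' share, complex sums and the genes printed by library), 10 held a library whose gap to its nearest neighbour was large for the range of its group. Chance gives about 1 in 20. All were values of single genes and none a sum.

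In PBS 2-cell embryos, Ndufs7 was lowest in replicate 2 (0.125 FPKM), Sdhb highest in replicate 1 (1.59) and Cox4i1 lowest in replicate 4 (1.91). In VCD 2-cell embryos, Sdhb was lowest in replicate 3 (0.379 FPKM) and Cox7b highest in replicate 4 (29.6). In PBS morulae, Cox6a2 was at 0.403 FPKM in replicate 4 and at 0 in the others, and Cox6b2 was lowest in replicate 1 (0.516 FPKM). In VCD morulae, Cox6a2 was at 0.0852 FPKM in replicate 1 alone, Ndufa4l2 at 0.0597 in replicate 3 alone, and Ndufb6 highest in replicate 4 (6.37 FPKM).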

How the results depend on the processing

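No member called in any comparison changed direction under any alternative. With PBS, the number of rising members lay between 58 and 72 over the 8 other settings and between 57 and 71 with 1 library left out (70 as reported), and the falling ones between 2 and 4 with 1 library left out (4 as reported). With VCD the ranges were 58 to 71 and 58 to 69 for rises (70 as reported) and 1 to 3 for falls with 1 library left out (3 as reported). Without any 1 of the 4 PBS 2-cell libraries Cox6a2 and Ndufa4l2 no longer reached the filter, which gave the 2 falls. Over the other settings the falls numbered 3 to 6 with PBS and 2 to 5 with VCD. Counting Sdhaf genes as members gave 5 falls with VCD and 6 with PBS. Median-of-ratios scaling moved the median of all genes from -0.08 to -0.44 with PBS, and ended the calls of Ndufb11, Ndufs3, Ndufv2 and Sdha. The number of members called between VCD and PBS was 0 in oocytes, 2-cell embryos, morulae and the interaction under every alternative, the replicate block included, which called 0 of 46, 0 of 62, 0 of 79 and 0 of 81. Same-numbered PBS and VCD libraries correlated at -0.33 to -0.11 in oocytes, -0.15 to 0.16 in 2-cell embryos and -0.05 to 0.38 in morulae. Morula replicates 1 and 4 correlated best with their own number, at 0.33 and 0.38 against at most 0.010 and 0.004 for another. So did 2-cell replicate 1, at 0.16 against at most 0.075. Every other PBS library correlated better with a VCD library of another number. The labels do not say what the numbers stand for, so whether they pair the libraries is not settled. With 4 or 5 libraries a group, the size of difference that could be resolved varied between members. Atp5j2, with means of 0.577 and 1.52 FPKM, was called at 1.59-fold in FPKM + 1 in the PBS stage comparison (limma adjusted p 0.000589). Between VCD and PBS, the interval lay within 2-fold in FPKM + 1 for 45 of 46 members in oocytes. It did so for 58 of 62 in 2-cell embryos and 72 of 79 in morulae. For the other members a 2-fold difference on that scale was not excluded. In FPKM itself the unresolved differences are larger in low members.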
